A study of Mus musculus with 138 samples.

Results

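Examined here were 9 genes of 1 pathway, of the 55487 annotated in the count files, chosen with earlier results of these data known. The receptor genes were Il11ra1 for interleukin 11, Il6st for gp130, and the related Lifr, Osmr and Il6ra. The ligands were Lif and Il11, the effector Stat3 and the inhibitor Socs3. Of these 9 genes, 8 passed the low-count filter (CPM, the count scaled to the library's size, of at least 1 in over 10% of libraries) and were tested among 19768 genes, and Il11 did not pass. The cytokines of the interleukin 6 family signal through receptor complexes built around a common subunit, gp130, which is encoded by Il6st. Interleukin 11 and interleukin 6 first bind an alpha receptor (Il11ra1 and Il6ra, respectively), whereas leukemia inhibitory factor (Lif) and oncostatin M pair gp130 with the signaling receptors Lifr or Osmr. The assembled receptors activate Janus kinases and the transcription factor Stat3, and Stat3 induces Socs3, an inhibitor that closes the loop. In the skull, loss of the interleukin 11 receptor is a known cause of premature suture fusion in humans and mice, and Lifr and Osmr act in cells of the osteoblast lineage.

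The samples were taken from wild type embryos of the C57BL/6J strain, at E16.5 or E18.5. Suture mesenchyme (SM) and the osteogenic fronts (OFs), the growing edges of the flanking bones, were laser-captured from the coronal, frontal, lambdoid and sagittal sutures, giving 20 groups of 5 libraries (100 in all), and the SM and OFs of a suture came from the same embryos. The coronal suture was captured with its frontal and parietal OFs, the lambdoid suture with its interparietal and parietal OFs, the frontal suture with its frontal OF and the sagittal suture with its parietal OF. No sample carried a mutation or a treatment. Also used were 18 second libraries of the coronal suture, each from an embryo and region that had a first library. There were also 16 libraries of complete E18.5 sutures, and 4 single-cell RNA-seq libraries of the coronal suture, 2 per age, whose cells were pooled from dissected sutures. The 100 libraries held between 7305627 and 34518477 counts each. Their labels matched the osteoblast markers: 9 of 10 (such as Ibsp, Bglap and Sp7) were higher in the OFs in the mean over sutures and ages. The summed group means of these markers were 64.5 to 538 CPM in SM against 3390 to 15500 CPM in the OFs. Markers of suture mesenchyme separated the regions less clearly, with 5 of 8 higher in SM and 2 higher in the OFs in that mean. Their summed group means overlapped, at 552 to 2120 CPM in SM and 426 to 1460 CPM in the OFs. Within each suture and age, the SM median of that sum was above the median of each OF. The coronal E16.5 libraries stood apart, with a median correlation to their own group of 0.834 to 0.861 against 0.908 to 0.969 in the other groups, so calls in single comparisons of these libraries are given with the value from a fit of that suture and age by itself. In bulk captures, fewer cells of a type and less RNA per cell cannot be told apart.

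The principal question was whether SM and OF differ in the machinery that receives these cytokines. Averaged over the 4 sutures and both ages, Il11ra1, Il6st and Osmr were higher in SM and Lifr was higher in the OFs. The mean SM minus OF log2 fold change was 1.04 for Il11ra1 (SE 0.074, edgeR adjusted p = 3.70e-23), a 2.05-fold difference. It was 1.28 for Osmr (SE 0.10, edgeR adjusted p = 7.49e-21) and 0.60 for Il6st (SE 0.04, edgeR adjusted p = 5.30e-25), or 2.44-fold and 1.52-fold. Lifr lay in the opposite direction, at -1.42 (SE 0.05, edgeR adjusted p = 1.76e-44), and was 2.67-fold higher in the OFs. Of the 8 tested members, 5 were called higher in SM and 2 higher in the OFs at an adjusted p under 0.05. Across all genes tested, 27.6% were called higher and 27.8% lower in SM, or 55.4% either way, so a call in this average was common, and the members' median log2 fold change of 0.65 stood beside 0.036 for all genes. Over the 12 single comparisons of SM with an OF, 30 of the member by comparison pairs were called higher in SM and 15 higher in the OF, beside 8.24% and 10.8% of all such pairs. The members were chosen with earlier results of these data known, so these counts and medians beside all genes are a description. Of all genes, 30.3% and 35.6% were called against the coronal frontal and parietal OFs at E16.5, with 3.46% and 18% at the later age, 7.91% and 11.1% against the frontal suture's OF at the successive ages, 11.2% and 23.1% against the lambdoid interparietal and parietal OFs at E16.5, with 19.6% and 24.6% at the later age, and 17.7% and 25.3% against the sagittal OF. The paired coronal comparisons of an age, and likewise the paired lambdoid ones, share their SM libraries.

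Because RNA abundance can be compared between genes only per length, levels were also expressed as CPM per kilobase of annotated exon. On that scale the shared subunit Il6st had group means of 20.6 to 45.1 in SM and 11.6 to 28.1 in the OFs. Il11ra1 ranged over 9.53 to 46.8 in SM and 4.54 to 23.6 in the OFs, and Lifr over 3.46 to 8.05 and 9.97 to 22.8. The effector Stat3 was at 6.38 to 16.3 in SM and 7.02 to 15.3 in the OFs. The remaining members were scarce per kilobase, with Osmr at 0.949 to 3.74 in SM, Socs3 at 0.420 to 1.76, Lif at 0.0693 to 1.67, Il6ra at 0.389 to 0.953 and Il11 at no more than 0.721 in any group. The abundant members were therefore the receptor subunits Il6st, Il11ra1 and Lifr together with Stat3.

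Lifr, the signaling receptor for Lif, separated the regions in every comparison (chr15:7090614-7197489, plus strand, mm10). It was called higher in the OF in 12 of 12 comparisons, which 1.14% of the genes tested were, and the 5 SM libraries lay below the 5 OF libraries in all 12, as they did in 9.7% of all gene by comparison pairs. In the sagittal suture at E18.5, Lifr measured 56.4, 47.2, 47.7, 41.3 and 43.7 CPM in the 5 SM libraries (replicates 1 to 5 in order) and 121, 166, 146, 124 and 127 CPM in the 5 parietal OF libraries. The groups did not overlap, with a gap from 56.4 to 121 CPM (log2 fold change -1.53, SE 0.15, adjusted p = 8.11e-15). In the coronal suture at E16.5, the SM libraries held 67.9, 78.5, 67.0, 43.5 and 47.7 CPM, the frontal OF 257, 154, 211, 184 and 306 CPM, and the parietal OF 215, 251, 232, 220.0 and 311 CPM. Every OF library exceeded every SM library, and these were the largest Lifr differences of the 12 comparisons, at -1.87 against the frontal OF and -2.01 against the parietal OF. When that suture and age were fitted alone, where 2.96% and 4.98% of genes were called against the frontal and parietal OF compared with 30.3% and 35.6% in the shared fit, both Lifr calls held (edgeR adjusted p = 2.79e-05 and 1.09e-05). The smallest Lifr difference was in the frontal suture at E18.5, with 73.3, 89.9, 79.6, 94.4 and 96.8 CPM in SM and 149, 126, 134, 206 and 175 CPM in the frontal OF (log2 fold change -0.86, SE 0.15, adjusted p = 3.40e-06). The groups were still apart there, with the highest SM library at 96.8 CPM and the lowest OF library at 126 CPM. All 12 Lifr calls held in every alternative tried. Markers of osteoblasts (9 of 10) and of proliferating cells (7 of 7) were also higher in the OFs in the mean over sutures and ages. Summed group means of the proliferating markers were 563 to 2810 CPM in SM and 1150 to 2170 CPM in the OFs. The part of these cells in the Lifr difference was not tested.

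Il11ra1, the alpha receptor that binds interleukin 11, ran the other way (chr4:41699989-41769474, plus strand, mm10). It was called higher in SM in 11 of 12 comparisons, where 1.34% of the genes tested were called higher in SM in at least 10, and the groups did not overlap in 8, beside 7.85% of all pairs with SM higher. At E18.5 the sagittal SM libraries measured 219, 225, 157, 227 and 219 CPM and the parietal OF libraries 75.8, 84.1, 70.1, 91.9 and 71.3 CPM. The lowest SM value, in replicate 3, lay far below the other 4 SM libraries and still above every OF library (log2 fold change 1.41, SE 0.23, adjusted p = 2.91e-07). In the lambdoid suture at E18.5, Il11ra1 measured 77.0, 101, 106, 95.5 and 77.6 CPM in SM, 46.1, 59.0, 46.5, 33.4 and 29.3 CPM in the interparietal OF and 35.7, 45.7, 47.4, 28.6 and 31.8 CPM in the parietal OF. Both fronts lay below all 5 SM libraries, by 1.09 and 1.27 on the log2 scale. The frontal suture showed the same separation at both ages, with log2 fold changes of 0.87 at E16.5 and 1.10 at E18.5. Markers of hypodermis, ectocranial mesenchyme and chondrocytes were also higher in SM in the mean over sutures and ages, in 5 of 6, 4 of 6 and 5 of 7 genes. Their summed group means were 142 to 514, 281 to 2430 and 99.2 to 398 CPM in SM and 48 to 237, 120 to 1400 and 70.4 to 165 CPM in the OFs, and none was at 0 in all groups. Of the chondrocyte markers 1 was higher in the OFs, and the part of these cells in the Il11ra1 difference was not tested.

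In the coronal suture, 3 of 4 Il11ra1 comparisons were called. At E18.5 its SM libraries measured 78.5, 33.1, 41.7, 60.6 and 30.3 CPM against 31.9, 27.5, 43.0, 44.2 and 34.5 CPM in the frontal OF. These groups overlapped and the difference was not called (log2 fold change 0.43, SE 0.22, adjusted p = 0.385). The parietal OF held 23.2, 33.1, 24.4, 21.7 and 25.0 CPM, and although its replicate 2 lay within the SM range, SM was called higher there in every alternative (log2 fold change 0.94, SE 0.22, adjusted p = 0.00108). At E16.5 the SM libraries measured 16.4, 59.5, 45.8, 43.4 and 47.9 CPM and the frontal OF 23.9, 46.2, 15.9, 23.3 and 13.2 CPM, so that replicate 1 of SM fell inside the OF range. The E16.5 calls against the frontal OF (log2 fold change 0.80, SE 0.23, adjusted p = 0.00427) and the parietal OF (log2 fold change 1.07, SE 0.23, adjusted p = 9.48e-05) were lost when the coronal E16.5 libraries were fitted alone, at nearly the same log2 fold changes of 0.77 and 1.08 (edgeR adjusted p = 0.373 and 0.132). The call against the frontal OF also ended without replicate 3 or 5 (log2 0.66 and 0.60, edgeR adjusted p = 0.0566 and 0.0520). Of the other 9 Il11ra1 calls, 7 held in every alternative, and those of the frontal suture and the lambdoid interparietal OF at E16.5 ended when the second coronal libraries replaced the first in the shared fit, at log2 0.87 and 0.89 (edgeR adjusted p = 0.0712 and 0.0508). Il11ra1 shares 8 annotated exon bases (0.18%) with Ccl27a, and counting was unstranded. Its near-identical copies took few reads, with at most 1 count in a library for Il11ra2, 12 for Gm13305 and 9 for Gm13306, although reads that map equally to several copies were not counted.

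**Figure D1:**
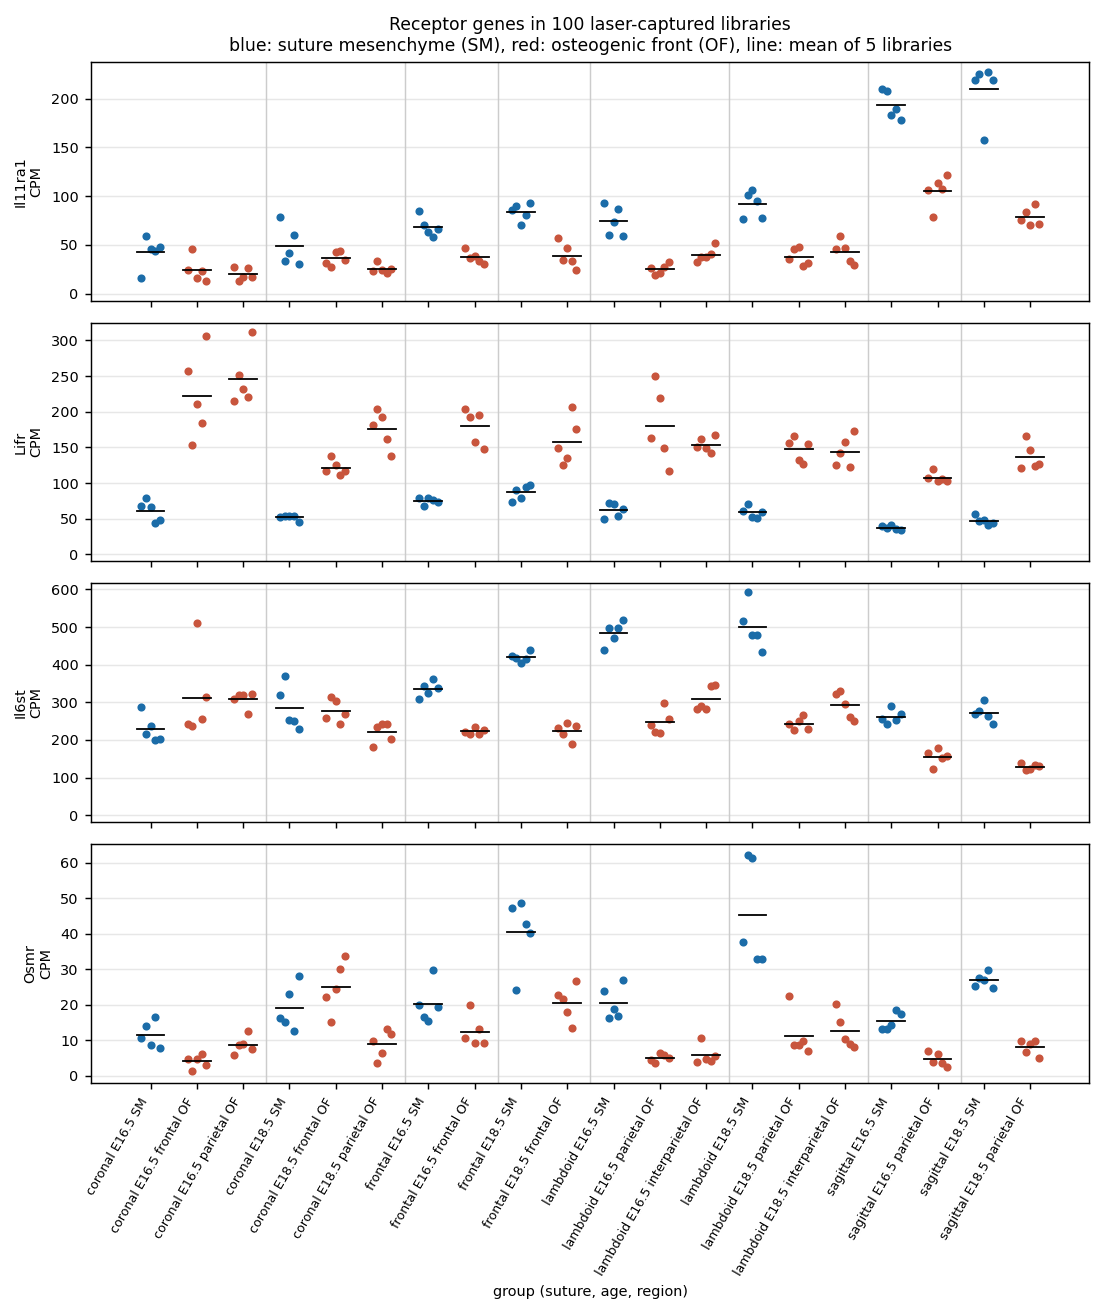
CPM of the receptor genes (vertical axes) in the 20 laser-captured groups (horizontal axis), where each point is 1 library, blue for SM and red for OF, and each line is the mean of 5 libraries. Lifr is lower in SM than in each OF of its suture in all 12 comparisons, and the highest Il11ra1 values are the sagittal SM libraries, at 157 to 227 CPM.

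The start regions of these oppositely placed genes are shown because Il11ra1 and Lifr were the members most often called higher in SM and in the OFs, in 11 and 12 of 12 comparisons, together with that of Socs3, a textbook target of Stat3. Sequences are from RefSeq on GRCm38.p6 and cover 250 bases before to 50 after the annotated start, 5′ to 3′. All 9 members matched, with 12 windows among them. Both strands were searched for the STAT motif TTCNNNGAA, which 8.3% of 32851 mouse windows hold, and for the RUNX motif TGTGGT, which 16.8% hold, and matches are in capitals. Socs3 held 1 STAT match (first base 154 before the start), 1 of 2 Il11ra1 windows held 1 RUNX match (89 before the start), and the first Lifr window, with a GC content of 81.3%, held neither. Lif also held 1 RUNX match, and the other members' windows held none of these letters.
Socs3, chr11:117969317-117969616, minus strand: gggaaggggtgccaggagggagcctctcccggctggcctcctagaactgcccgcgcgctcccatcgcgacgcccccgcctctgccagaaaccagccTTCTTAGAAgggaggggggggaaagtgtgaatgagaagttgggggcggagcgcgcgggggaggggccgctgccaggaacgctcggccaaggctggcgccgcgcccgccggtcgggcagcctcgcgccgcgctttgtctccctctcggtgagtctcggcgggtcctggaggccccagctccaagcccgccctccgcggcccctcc
Il11ra1, chr4:41762060-41762359, plus strand: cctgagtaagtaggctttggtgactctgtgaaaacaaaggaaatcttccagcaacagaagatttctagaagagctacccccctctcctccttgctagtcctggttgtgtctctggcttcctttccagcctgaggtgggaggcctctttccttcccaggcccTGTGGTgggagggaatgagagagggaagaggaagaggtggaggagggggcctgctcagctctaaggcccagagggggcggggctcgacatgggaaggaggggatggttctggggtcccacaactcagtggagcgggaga
Lifr, chr15:7129322-7129621, plus strand: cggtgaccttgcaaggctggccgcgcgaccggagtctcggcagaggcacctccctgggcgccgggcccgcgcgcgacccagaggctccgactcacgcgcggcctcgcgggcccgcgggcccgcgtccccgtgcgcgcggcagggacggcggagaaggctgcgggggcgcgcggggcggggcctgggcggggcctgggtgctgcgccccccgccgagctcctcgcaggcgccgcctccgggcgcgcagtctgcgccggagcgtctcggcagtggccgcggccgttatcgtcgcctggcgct

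Il6st, the gp130 subunit that all of these receptors need, was higher in SM in every comparison of the frontal, lambdoid and sagittal sutures. All 8 were called and none of the 8 overlapped, beside 8.24% of all gene by comparison pairs called higher and 7.85% not overlapping with SM higher (chr13:112464070-112510086, plus strand, mm10). At E18.5 the sagittal SM libraries measured 269, 277, 307, 264 and 243 CPM and the parietal OF libraries 138, 121, 122, 132 and 131 CPM. SM was thus above OF by a clear margin (log2 fold change 1.08, SE 0.12, adjusted p = 6.81e-12). The lambdoid SM held 516, 593, 479, 480.0 and 433 CPM at E18.5 against 242, 226, 249.9, 268 and 228 CPM in the parietal OF (log2 fold change 1.04, SE 0.12, adjusted p = 2.80e-11). The frontal suture gave 0.59 at E16.5 and 0.91 at E18.5 on the log2 scale. These 8 calls held in every alternative.

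In the coronal suture, Il6st did not follow this pattern. At E16.5 the SM libraries measured 288, 216, 237, 199 and 203 CPM, the frontal OF 243, 236, 512, 254 and 314 CPM and the parietal OF 308, 319, 320.0, 268 and 322 CPM. SM was called lower than both fronts, by -0.45 (edgeR adjusted p = 0.00287) and -0.43 (edgeR adjusted p = 0.00364), though the groups overlapped, replicate 3 of the frontal OF was the highest at 512 CPM, and both calls were lost in the fit of that suture and age alone, at log2 -0.48 and -0.42 (edgeR adjusted p = 0.292 and 0.307). Without replicate 3 the difference from the frontal OF was -0.20 (edgeR adjusted p = 0.232), and without replicate 5 that from the parietal OF was -0.34 (edgeR adjusted p = 0.0564). With the second coronal libraries alone the frontal difference was -0.18 (edgeR adjusted p = 0.398) and the parietal one turned to 0.0055 (edgeR adjusted p = 0.990), and total counts gave -0.28 and -0.23, neither called. At E18.5 the coronal SM held 319, 371, 254, 249 and 230.2 CPM and the frontal OF 258, 314, 304, 243 and 269 CPM. These groups overlapped and the difference of 0.036 was not called. Against the coronal parietal OF, SM was called higher by 0.37, a call that ended without replicate 1 or replicate 2 (log2 0.30 and 0.28, edgeR adjusted p = 0.134 and 0.178).

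Osmr, the oncostatin M receptor subunit, was called higher in SM in 9 of 12 comparisons (chr15:6813577-6874969, minus strand, mm10). In the lambdoid suture at E16.5 its SM libraries measured 23.99, 16.3, 18.9, 16.8 and 26.9 CPM, the interparietal OF 3.77, 10.6, 4.65, 4.31 and 5.47 CPM and the parietal OF 4.39, 3.70, 6.36, 5.80 and 5.03 CPM. Neither front overlapped SM, and the parietal OF gave the larger difference (log2 fold change 2.02, SE 0.32, adjusted p = 2.89e-07). At E18.5 the sagittal SM libraries held 25.4, 27.5, 27.0, 29.7 and 24.8 CPM against 9.92, 6.70, 9.07, 9.87 and 4.90 CPM in the OF (log2 fold change 1.73, SE 0.31, adjusted p = 3.92e-06). No OF library there exceeded 9.92 CPM and no SM library was below 24.8 CPM. The frontal suture was less clear, with 19.9, 16.7, 15.5, 29.8 and 19.4 CPM in SM and 10.8, 19.8, 9.21, 13.2 and 9.17 CPM in the OF at E16.5. Replicate 2 of the OF lay within the SM range there, and the difference (log2 fold change 0.70, SE 0.30, adjusted p = 0.167) was called without replicate 2 (log2 1.00, edgeR adjusted p = 0.0249) and in the fit of that suture and age alone (edgeR adjusted p = 0.0223). The frontal E18.5 call (log2 fold change 0.99, SE 0.30, adjusted p = 0.0193) ended without replicate 1, 3 or 4 (edgeR adjusted p = 0.0673, 0.122 and 0.158).

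In the coronal suture Osmr was called in 2 of 4 comparisons. At E18.5 its SM libraries measured 16.2, 15.1, 23.2, 12.7 and 27.98 CPM and the frontal OF 22.3, 15.1, 24.3, 30.1 and 33.7 CPM. The frontal OF reached as high as SM and the difference of -0.40 was not called. The parietal OF held 9.83, 3.57, 6.41, 13.2 and 11.7 CPM, and SM was called higher by 1.09 (edgeR adjusted p = 0.00567), except without replicate 3 (edgeR adjusted p = 0.0768). At E16.5 no library of SM overlapped the frontal OF and SM was called higher (log2 fold change 1.49, SE 0.31, adjusted p = 1.07e-04), but not in the fit of that suture and age alone, at 1.47 (edgeR adjusted p = 0.164). With the second coronal libraries alone, the frontal difference was 0.63 (edgeR adjusted p = 0.339), and the parietal difference, 0.39 and not called in the first libraries, was 2.24 (edgeR adjusted p = 7.98e-05). Markers of pericytes and endothelial cells moved with Osmr in the coronal suture at E18.5. The 6 pericyte markers summed to 344 to 840 CPM (median 714) in the frontal OF, 280 to 527 CPM (450) in SM and 113 to 194 CPM (148) in the parietal OF. The 7 endothelial markers summed to 162 to 376 CPM (318), 234 to 296 CPM (258) and 55 to 89.6 CPM (75). In the mean over sutures and ages 4 of 6 pericyte markers were called higher in SM and 1 in the OFs, and 1 of 7 endothelial markers higher in SM, and none was at 0 in all groups. In the coronal suture at E16.5 the pericyte medians were 353 CPM in SM against 127 and 67.2 CPM in the frontal and parietal OFs. In the first libraries Osmr had the other order between those fronts, lower in the frontal than in the parietal OF. The pericyte medians went with Osmr in the frontal suture, with 254 against 155 CPM at E16.5 and 311 against 201 CPM at E18.5. In the lambdoid and sagittal sutures at E18.5 they did not follow Osmr, with medians of 176 CPM in the lambdoid SM against 224 and 189 CPM in its interparietal and parietal OFs, and ranges of 170 to 222 CPM in the sagittal SM against 181 to 277 CPM in the OF. Their part in the Osmr differences was not tested.

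**Figure D2:**
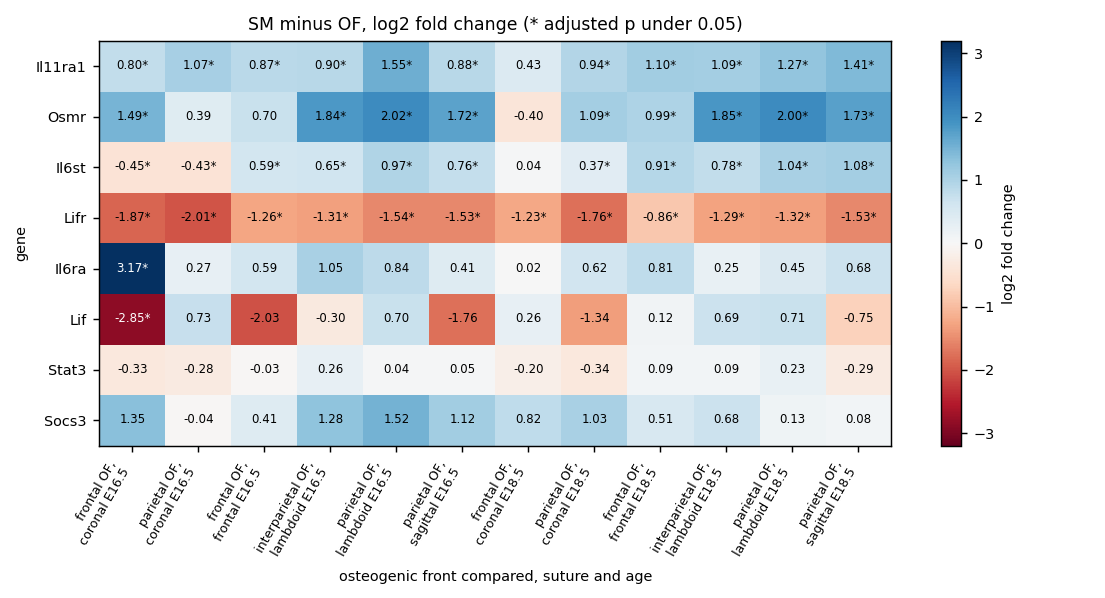
Log2 fold change of SM minus OF (color, scale at right) for the 8 tested members (vertical axis) in the 12 comparisons (horizontal axis), with an asterisk where the edgeR adjusted p was under 0.05. Lifr is negative in all 12 columns and Il11ra1 positive in all 12, and Il6st is below 0 in the coronal E16.5 columns.

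The coronal suture was then compared with the other sutures directly, as the mean of its 4 SM minus OF differences less the mean of the other 8. Each suture came from its own embryos, and its libraries may have been prepared as a set. A trait of the coronal suture and one of its embryos or libraries cannot be told apart here. Of the 8 tested members, 3 receptor subunits differed, all downward, against 20.8% of all genes tested and 8.15% downward. The difference was -0.97 for Il6st (SE 0.09, edgeR adjusted p = 1.10e-14), -0.96 for Osmr (SE 0.22, edgeR adjusted p = 7.30e-04) and -0.39 for Lifr (SE 0.11, edgeR adjusted p = 0.00455). The SM excess of Osmr was thus smaller in the coronal suture, and the OF excess of Lifr larger. Il6st had no steady SM excess there, as its coronal differences went both ways. The coronal SM also held higher osteoblast marker medians than the SM of the other sutures, and their part in these differences was not tested. Il6st kept its call in 15 of 15 alternatives and Osmr in 14 of 15. Lifr kept it in 11 of 15, and without the coronal E16.5 libraries the Lifr difference was -0.16 (edgeR adjusted p = 0.394). Without replicate 5 it was -0.28 (edgeR adjusted p = 0.0572). With the second coronal libraries alone it was -0.067 (edgeR adjusted p = 0.764), and the Osmr difference was -0.64 (edgeR adjusted p = 0.109). Il11ra1 did not pass the threshold in this comparison.

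Il6ra, the alpha receptor for interleukin 6, was low and differed modestly. Its mean SM minus OF log2 fold change was 0.73 (SE 0.19, edgeR adjusted p = 5.92e-04), with group means of 3.36 to 8.24 CPM in SM and 0.398 to 4.70 CPM in the OFs. The single comparison called in the shared fit was the coronal frontal OF at E16.5, where SM measured 0.252, 13.9, 3.70, 0.160 and 0.423 CPM and the OF 0, 0.409, 0, 1.05 and 0.527 CPM. Replicate 2 of SM alone stood high, the groups overlapped, and the call (log2 fold change 3.17, SE 0.64, adjusted p = 6.00e-05) ended without replicate 2 (log2 1.5, edgeR adjusted p = 0.0799), with the embryo as a block (log2 2.00, edgeR adjusted p = 0.0839) and in the fit of that suture and age alone (edgeR adjusted p = 0.293). Fitted alone, lambdoid E16.5 SM was called higher than the interparietal OF (log2 1.08, edgeR adjusted p = 0.0252, 26.1% of genes called). It was also called higher than the parietal OF (log2 0.88, edgeR adjusted p = 0.0469, 40.8% called). In the frontal suture at E18.5 SM lay above the OF without overlap, as for 5.76% of genes, but was not called in the shared fit (log2 0.81, edgeR adjusted p = 0.469). Markers of macrophages moved the same way as Il6ra: 8 of 9 were called higher in SM in the mean over sutures and ages, their summed group means were 83.8 to 393 CPM in SM and 84.6 to 209 CPM in the OFs, and none was at 0 in all groups. Their part in the Il6ra difference was not tested. Il6ra shares 242 annotated exon bases (2.8%) with Gm42809, and the unstranded counts cannot separate the pair there.

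The ligand genes were scarce. Lif, which signals through Lifr and gp130, was lower in SM in the mean over sutures and ages (log2 fold change -0.64, SE 0.26, adjusted p = 0.0282, edgeR), but this call ended without replicate 1, 2 or 3 (edgeR adjusted p = 0.0692, 0.273 and 0.144). In the frontal suture at E16.5 Lif measured 0.842, 0.610, 0.855, 0.963 and 0.828 CPM in SM and 6.63, 2.30, 3.11, 2.40 and 2.35 CPM in the frontal OF. No library overlapped, and the difference was called in the fit of that suture and age alone (edgeR adjusted p = 4.67e-04, where 25.7% of genes were called) but not in the shared fit (edgeR adjusted p = 0.107, 7.91% called). Sagittal E16.5 Lif measured 1.09, 0.0634, 0.287, 0.503 and 0.775 CPM in SM and 1.01, 2.42, 2.17, 2.32 and 1.33 CPM in the OF, with an overlap only at replicate 1, and was likewise called in the fit of that suture and age alone (edgeR adjusted p = 0.00476, 45.4% called). In the lambdoid suture at E18.5 Lif reached 11.0 CPM in replicate 3 of SM, and there the regions overlapped. The called coronal E16.5 difference from the frontal OF (log2 fold change -2.85, SE 0.82, adjusted p = 0.00516) rested on replicate 3 of that front, at 8.49 CPM, and without replicate 3 it was -1.26 (edgeR adjusted p = 0.314). In the fit of that suture and age alone it was -2.92 and not called (edgeR adjusted p = 0.532). The coronal E18.5 difference from the parietal OF was -1.34 and not called (edgeR adjusted p = 0.238), and was called in 5 alternatives, at -1.32 to -3.14 (adjusted p = 0.0282 to 0.0450). The -3.14 is from the second coronal libraries alone, of which those of SM held 0, 0.467 and 0 CPM, so its size is not fixed.

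Il11, the ligand of the Il11ra1 receptor, had any count in 53 of the 100 libraries and over 10 counts in 6. The highest library was replicate 2 of the coronal E18.5 frontal OF, with 173 counts or 7.50 CPM, and the next held 36 counts. All 15 coronal E16.5 libraries were at 0, which allows up to 3 counts in each. An exact permutation test of log2(CPM + 1) over 5 against 5 libraries found 0 of 12 comparisons past the threshold after adjustment (smallest two-sided exact p = 0.0317, adjusted p = 0.381, lambdoid E18.5 SM against the interparietal OF, 1 of 12 under an unadjusted p of 0.05). With 5 against 5 libraries the smallest exact p is 0.00794, or 0.0952 when 1 of 12 comparisons reaches it, so no comparison could have passed by itself.

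Stat3, the transcription factor downstream of gp130, was well above the detection limit and no difference between SM and OF passed the threshold in the shared fit of all 5 replicates. Its mean SM minus OF log2 fold change was -0.055 (SE 0.065, edgeR adjusted p = 0.501), with a sign that turned positive under DESeq2 (0.013), median-ratio size factors (0.013) or total counts (0.049), and 0 of 12 comparisons were called. In the lambdoid suture at E18.5 the SM libraries measured 133, 161, 129.8, 201 and 150.2 CPM and the interparietal OF 153, 159, 142, 146 and 129 CPM. The regions overlapped. In the sagittal suture at E18.5, SM measured 66.3, 66.4, 82.9, 66.2 and 76.7 CPM and the parietal OF 71.6, 96.6, 86.6, 97.1 and 85.5 CPM, and SM was called lower in the fit of that suture and age alone (edgeR adjusted p = 0.0452, 42.8% of genes called), not in the shared fit. Without replicate 5 the shared fit called Stat3 lower in coronal E16.5 SM than in the frontal OF (log2 -0.65, edgeR adjusted p = 0.0123, against -0.33 and 0.203 with all replicates). The fit of that suture and age alone gave -0.37 (edgeR adjusted p = 0.714). Its coronal SM minus OF difference, less that of the other sutures, was -0.34 (edgeR adjusted p = 0.0813), and was called without replicate 5 (-0.48, edgeR adjusted p = 0.0174) and with DESeq2 (-0.38, adjusted p = 0.0418). Stat3 shares 72 annotated exon bases (0.76%) with Stat5a.

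Socs3, the Stat3-induced inhibitor, was higher in SM in the mean (log2 fold change 0.69, SE 0.26, adjusted p = 0.0173, edgeR) but in 0 of 12 comparisons of the shared fit. At E16.5 the sagittal SM libraries measured 2.12, 2.22, 2.93, 2.64 and 3.24 CPM and the parietal OF 0.418, 1.18, 1.66, 1.478 and 1.27 CPM, without overlap. The lambdoid E16.5 SM libraries measured 7.83, 2.22, 2.99, 3.16 and 2.70 CPM, with replicate 1 far above the rest, and the parietal OF 1.62, 0.717, 2.26, 1.34 and 0.629 CPM, where 1 library reached into the SM range. Fitted by suture and age, both were called (edgeR adjusted p = 0.00590 and 0.00453, with 45.4% and 40.8% of genes called), and with the embryo as a block the lambdoid parietal comparison was called as well (log2 1.55, edgeR adjusted p = 0.0313), as was the coronal E16.5 frontal one (log2 1.86, edgeR adjusted p = 0.0421). The latter was 1.35 and not called in the shared fit (edgeR adjusted p = 0.206), and the fit of that suture and age alone gave 1.37 (edgeR adjusted p = 0.825). At E16.5, the embryo of coronal replicate 2 held the highest Socs3 in all 3 of its regions, at 5.56 CPM in SM, 2.35 CPM in the frontal OF and 4.58 CPM in the parietal OF. The other 4 libraries of that frontal OF were at 0 counts and those of SM held 0 to 8 counts, so no fold is given without replicate 2, although that comparison was then called (edgeR adjusted p = 0.00385).

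**Figure D3:**
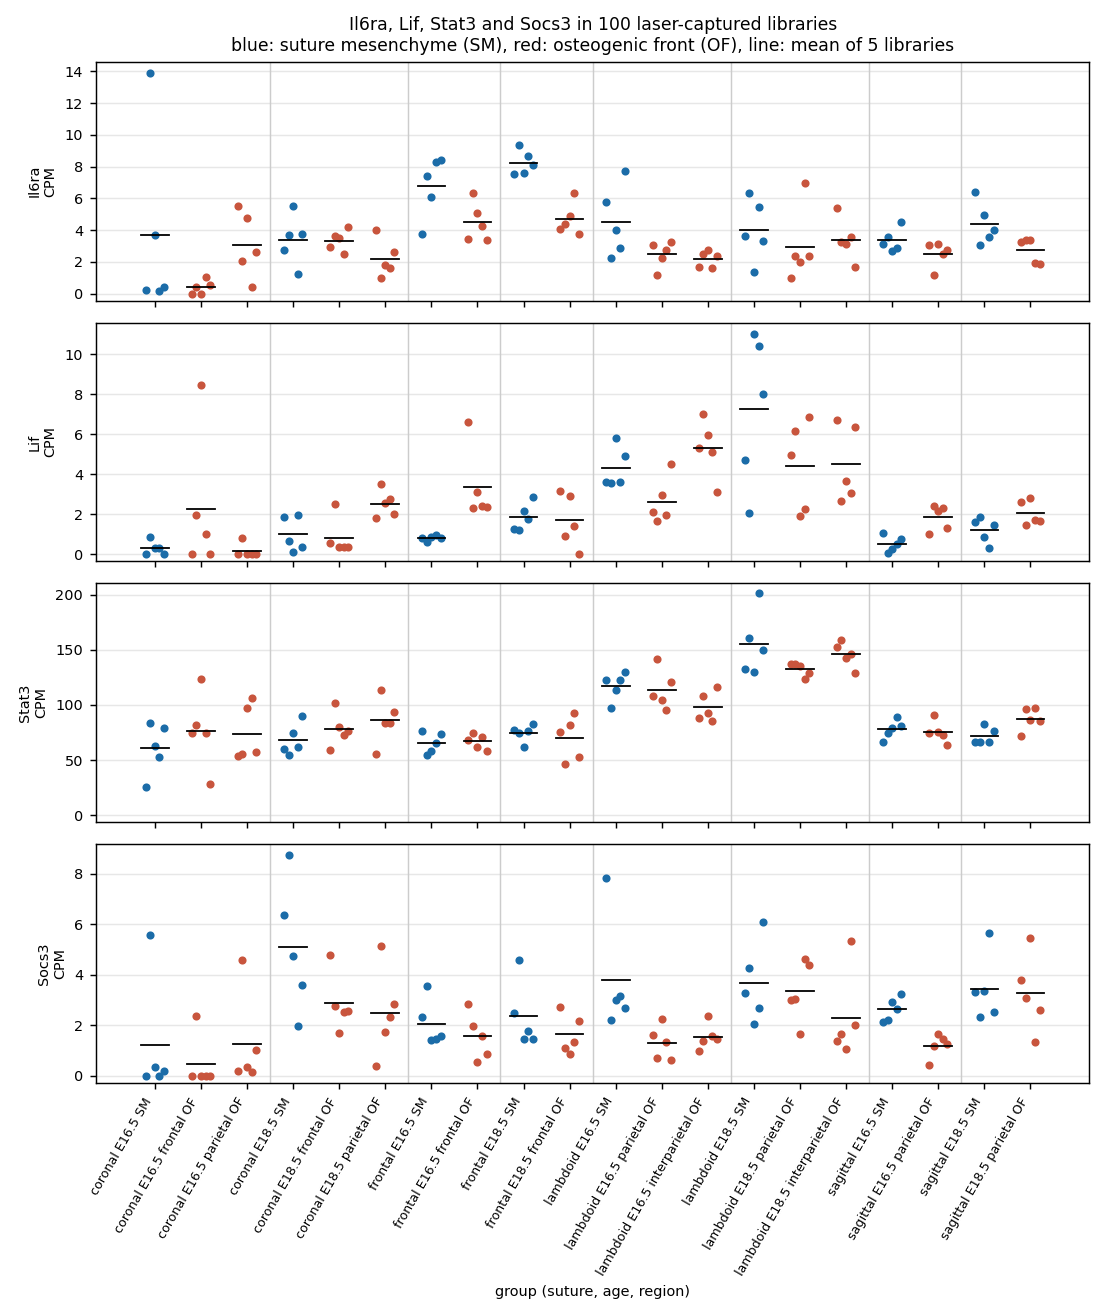
CPM of Il6ra, Lif, Stat3 and Socs3 (vertical axes) in the 20 groups (horizontal axis), with 1 point per library, blue for SM and red for OF, and a line at the mean of 5 libraries. The high Il6ra point is replicate 2 of the coronal E16.5 SM at 13.9 CPM, and the highest Lif point is a lambdoid E18.5 SM library at 11.0 CPM.

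The ages were compared within SM and within the OFs, averaging the 4 sutures. In SM 3 of 8 members were called higher at E18.5, beside 5.14% of all genes tested higher and 5.92% lower (11.1% either way). In the OFs 2 were higher and 2 lower, beside 6.05% and 6.14% (12.2% either way). Osmr was the member that rose most firmly. Its E18.5 minus E16.5 log2 fold change was 0.92 in SM (SE 0.15, edgeR adjusted p = 2.43e-06) and 1.00 in the OFs (SE 0.13, edgeR adjusted p = 1.17e-08), and both calls held in 14 of 14 alternatives. In the lambdoid SM, Osmr measured 23.99, 16.3, 18.9, 16.8 and 26.9 CPM at E16.5 and 37.7, 62.2, 61.2, 32.8 and 32.9 CPM at E18.5. Every E18.5 library was above every E16.5 library there (log2 fold change 1.14, SE 0.30, adjusted p = 0.0164). The frontal SM showed 19.9, 16.7, 15.5, 29.8 and 19.4 CPM at E16.5 and 47.2, 24.2, 48.7, 42.6 and 40.1 CPM at E18.5, with replicate 2 of the later age inside the earlier range. By single sutures, Osmr was called in the SM of 1 suture, the lambdoid, and in the OFs of 2, the lambdoid (1.14) and the coronal (1.32), where 8.39% and 10.6% of all gene by suture pairs were called in SM and in the OFs. The coronal value averages 2 fronts, in which Osmr measured 4.08 ± 1.86 CPM at E16.5 and 25.1 ± 7.21 CPM at E18.5 in the frontal OF, and 8.78 ± 2.45 CPM and 8.95 ± 3.94 CPM in the parietal OF (SD, n = 5). The parietal OF thus held a like mean at both ages, and the difference between the fronts was not tested. The summed pericyte markers had a higher median at E18.5 in every captured region. These medians went from 127 to 714 CPM in the coronal frontal OF, from 67.2 to 148 CPM in the coronal parietal OF, from 353 to 450 CPM in the coronal SM, from 254 to 311 CPM in the frontal SM and from 99.6 to 176 CPM in the lambdoid SM. Their part in the Osmr change with age was not tested.

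By single sutures, Il6st and Socs3 were each called higher at E18.5 in the SM of 1 suture. In the OFs of 1 suture each, Il11ra1, Il6ra and Socs3 were called higher and Il6st and Lifr lower. Of all gene by suture pairs, 8.39% and 10.6% were called in SM and in the OFs, and these single calls were not refitted under the alternatives. The other age calls in the mean over sutures were less stable. Lif in SM (log2 fold change 1.19, SE 0.39, adjusted p = 0.0326, edgeR) held in 6 of 14 alternatives (-0.15 with the second coronal libraries alone and 0.38 with them in place of the first) and Il6st in SM (log2 fold change 0.18, SE 0.061, adjusted p = 0.0324, edgeR) in 7 of 14. In the OFs, Socs3 (log2 fold change 1.06, SE 0.34, adjusted p = 0.0281, edgeR) held in 10 of 14, Il6st (log2 fold change -0.16, SE 0.053, adjusted p = 0.0312, edgeR) in 2 of 14 and Lifr (log2 fold change -0.18, SE 0.062, adjusted p = 0.0471, edgeR) in 1 of 14. The Socs3 call ended without replicate 1, 3, 4 or 5. In the mean over sutures Socs3 was not called in SM (0.64, edgeR adjusted p = 0.327), but it was without replicate 2 (1.29, edgeR adjusted p = 0.00289) and with limma-voom (1.22, adjusted p = 0.00600). Stat3 in the OFs was not called (0.20, edgeR adjusted p = 0.122), but it was without the coronal E16.5 libraries (0.25, edgeR adjusted p = 0.0131), with the second coronal libraries alone (0.19, edgeR adjusted p = 0.0287) and with library quality weights in voom (0.27, adjusted p = 3.90e-04). Without the coronal E16.5 libraries the OF change was -0.082 for Il6st and 0.012 for Lifr, so that both rested on that group. The SM minus OF difference itself changed with age for 1 member, Il6st, by 0.34 (SE 0.08, edgeR adjusted p = 0.0138), beside 0.703% of all genes either way and 0.309% upward. In the coronal suture by itself this change was 0.64 (edgeR adjusted p = 0.00319, 7.62% of genes called), but 0.19 with the second coronal libraries alone (edgeR adjusted p = 0.606) and 0.50 with them in place of the first (edgeR adjusted p = 0.203), and without the coronal E16.5 libraries the mean change was 0.21 (edgeR adjusted p = 0.186). The call also ended without replicate 1, 2, 4 or 5, at nearly the same values of 0.33, 0.33, 0.32 and 0.35 (edgeR adjusted p = 0.105, 0.0614, 0.108 and 0.0704).

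The level of a gene between sutures could not be read from the captures alone. Each suture came from its own embryos, and its libraries may have been prepared as a set. Levels also differed within 18 pairs of a first and second coronal library of the same embryo and region. Il11ra1 was higher in the second in 18 of 18 (median ratio 2.16) and Socs3 in 16 of 18 (1.79). These ratios and those that follow were taken after adding 1 to each CPM, which draws the ratios of scarce genes toward 1. Osmr was higher in the second in 5 of 18 (0.638), Lifr in 1 of 18 (0.775) and Il6st in 0 of 18 (0.603). The labels do not say whether a second library came from the same RNA, so a new library and a new capture cannot be told apart here. Complete E18.5 sutures, with 1 library per suture in each of 4 library sets, allowed the 4 sutures to be set side by side within a set. The labels call these libraries normalization controls, each replicate 1. They do not say whether the 4 sets hold separate RNA, so these values and their SD are a description. Lifr had the same order in all 4 sets, coronal above lambdoid above frontal above sagittal, with means of 300.5 ± 35.3 CPM, 159 ± 20.4 CPM, 104 ± 12.3 CPM and 87.4 ± 12.4 CPM (SD over the 4 sets), and coronal was 3.24 to 3.58 times sagittal within a set. Across sets the coronal and lambdoid ranges overlapped no other, while the frontal and sagittal ranges overlapped each other.

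Il11ra1 in the complete sutures was high in the frontal and sagittal and low in the coronal and lambdoid in each set. Its means were 101 ± 44.2 CPM in the frontal, 104 ± 48.3 CPM in the sagittal, 50.2 ± 22.3 CPM in the coronal and 49.3 ± 20.1 CPM in the lambdoid suture, and the frontal and sagittal mean was 1.84 to 2.26 times that of the coronal and lambdoid within a set. The level differed widely between the sets, and the order within each pair of sutures changed from set to set. Il6st was also higher in the frontal and sagittal sutures, by 1.28 to 1.42 times within a set. Stat3 and Socs3 were highest in the coronal suture in all 4 sets, with Stat3 at 97.2 ± 8.54 CPM against 69.3 ± 2.90 CPM in the frontal suture and Socs3 at 5.24 ± 0.702 CPM against 2.73 ± 1.73 CPM in the lambdoid suture. Lif had no single order, with means of 4.24 ± 1.76 CPM in the coronal, 2.65 ± 1.30 CPM in the sagittal, 2.497 ± 0.969 CPM in the lambdoid and 1.45 ± 0.420 CPM in the frontal suture.

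**Figure D4:**
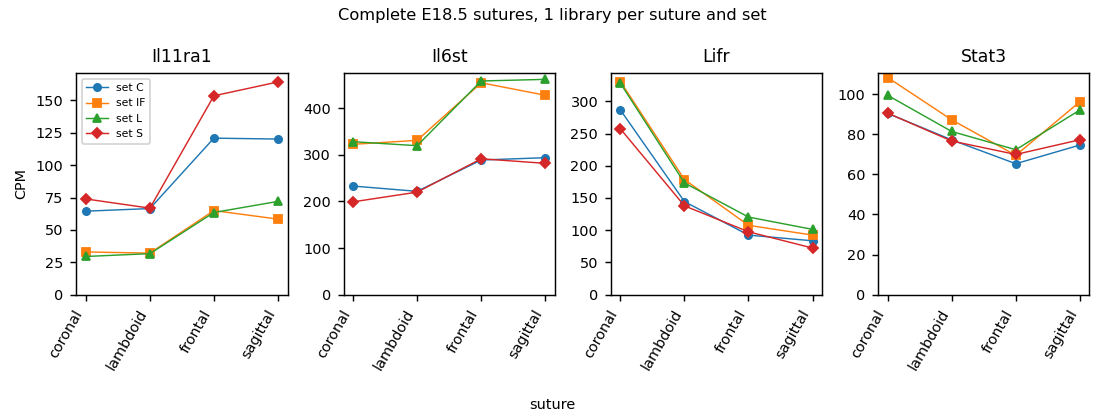
CPM (vertical axes) of Il11ra1, Il6st, Lifr and Stat3 in complete E18.5 sutures (horizontal axes), with 1 point per suture and library set, and lines that join the points of a set (legend). Lifr is highest in the coronal and lowest in the sagittal suture in all 4 sets, while Il11ra1 is higher in the frontal and sagittal sutures in each.

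The single-cell libraries placed these transcripts in the coronal suture. Of 1530 and 1482 barcodes in the E16.5 libraries, 466 and 337 cells were kept, and of 2628 and 1999 in the E18.5 libraries, 2412 and 1577, with a median of 2501, 2121, 18476 and 7131 UMIs per cell. The E16.5 libraries shared 1 barcode (0 among kept cells) and the E18.5 libraries 5 (4 among kept cells). The deposited matrices of the E18.5 libraries are named with a code of the earlier age, and the age in the labels was followed. The members took no part in the clustering. Clusters were named only where at least 3 markers of a cell type were among the 10 leading genes (this requirement was added once the clusters were known), and the others are described by their leading genes. The ages were captured with different chemistries and are not compared, and with 2 libraries per age, values are given without a test.

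At E18.5 Lifr was highest in the osteoblast-like cells, at 102 and 139.7 CPM in libraries 1 and 2. The next cluster, led by Cp, Gpx3 and Alpl, held 72.6 and 76.3 CPM. The clusters led by Sfrp2 and Igfbp3, by Tppp3, by Sostdc1, by Gpha2 and by Atp1b1 held between 8.51 and 20.5 CPM of Lifr in either library, the macrophage-like cells 24.5 and 18.6 CPM and the endothelial-like cells 36.9 and 48.5 CPM. Thinned to 2500 UMIs per cell, Lifr was detected in 24 of 112 (21.4%, 95% Wilson interval 14.8 to 29.9%) osteoblast-like cells in library 1 and 106 of 362 (29.3%, 95% Wilson interval 24.8 to 34.2%) in library 2. In erythroid-like cells of library 2, which should lack the gene, it was detected in 0 of 78, which allows a share of up to 3.85% of cells with a UMI (3 counts of the total). These intervals cover counting error only.

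Il11ra1 was highest in E18.5 clusters where Lifr was low. It measured 491 and 599.6 CPM in the cluster led by Sfrp2, Igfbp3 and Col8a1, 603 and 431 CPM in that led by Atp1b1, Mfap5 and Itih5, and 499 and 470.0 CPM in that led by Gpha2, Scara5 and Nppc. In osteoblast-like cells it measured 36.4 and 61.1 CPM, beside 58.3 CPM in the erythroid-like cells of library 2. At such a level expression and background cannot be told apart, and this was not tested. Library 1 held 1 erythroid-like cell and gives no such value. Macrophage-like cells were low in Il11ra1 as well as in Lifr, with 59.5 and 43.1 CPM of Il11ra1, and pericyte-like cells held 69.6 and 92.0 CPM of Il11ra1, with Lifr in 5 of 29 and 1 of 27 of them after thinning. Thinned shares gave Il11ra1 in 7 of 112 (6.25%, 95% Wilson interval 3.06 to 12.3%) osteoblast-like cells in library 1 and 48 of 362 (13.3%, 95% Wilson interval 10.2 to 17.1%) in library 2, beside 11 of 78 (14.1%, 95% Wilson interval 8.06 to 23.5%) erythroid-like cells. At E16.5 osteoblast-like cells, only 17 and 20 in number, held 264 and 108 CPM of Lifr and 37.7 and 13.5 CPM of Il11ra1, and the cluster led by Cxcl14 and Col8a1 held 21.1 and 46.9 CPM of Lifr and 666 and 539.5 CPM of Il11ra1.

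The remaining receptors had other distributions at E18.5. Osmr was highest in pericyte-like cells, at 69.6 and 51.5 CPM, and endothelial-like cells, at 28.6 and 71.3 CPM, and macrophage-like cells held 0.336 and 0 CPM. Il6st was broad, with 99.7 and 156 CPM in the Atp1b1-led cluster, 88.1 and 111 CPM in endothelial-like cells, 26.6 and 33.6 CPM in osteoblast-like cells and 18.1 and 15.7 CPM in macrophage-like cells. Il6ra was found mainly in macrophage-like cells, at 54.4 and 49.97 CPM, with 10.4 and 15.6 CPM in chondrocyte-like cells and 0 and 0 CPM in osteoblast-like cells. Thinned, Il6ra was detected in 44 of 276 (15.9%, 95% Wilson interval 12.1 to 20.7%) macrophage-like cells in library 1 and 12 of 73 (16.4%, 95% Wilson interval 9.66 to 26.6%) in library 2. In chondrocyte-like cells it was detected in 2 of 117 and 0 of 11, and in the erythroid-like cells of library 2 in 0 of 78. The counts of 0 allow shares of up to 27.3% and 3.85%. At E16.5 Il6ra rested on 9 and 8 UMIs in macrophage-like cells (62.3 and 99.4 CPM) and 6 and 6 UMIs in osteoclast-like cells (39.4 and 37.5 CPM). Thinned, it was found in 1 of 21 and 0 of 1 macrophage-like cells and in 2 of 33 and 4 of 29 osteoclast-like cells, and no order of these classes is read from so few.

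Downstream, Socs3 was highest in E18.5 pericyte-like cells, at 1294 and 706 CPM, against 293 and 298 CPM over all cells, and Stat3 in pericyte-like cells measured 197 and 199 CPM against 76.3 and 78.3 CPM over all cells. Thinned, Stat3 was detected in 14 of 29 and 4 of 27 pericyte-like cells, beside 396 of 2412 and 255 of 1577 of all cells. The thinned share was thus higher in pericyte-like cells in library 1 only. Stat3 was also detected in 10 of 42 and 15 of 27 endothelial-like cells and in 29 of 117 and 3 of 11 chondrocyte-like cells. Both of these classes had shares above those of all cells in both libraries. Genes induced by dissociation, such as Fos and Junb, summed to 6598 and 4952 CPM in the E18.5 libraries and 979 and 1191 CPM in the E16.5 libraries. Socs3 is itself such an early response gene, and the part of dissociation in its single-cell level was not tested. Lif was near the limit of detection over all E18.5 cells, at 2.33 and 2.55 CPM. Il11 gave 45 and 7 UMIs in the E18.5 libraries and 0 in both E16.5 libraries, where a count of 0 allows up to 3 UMIs per library.

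**Figure D5:**
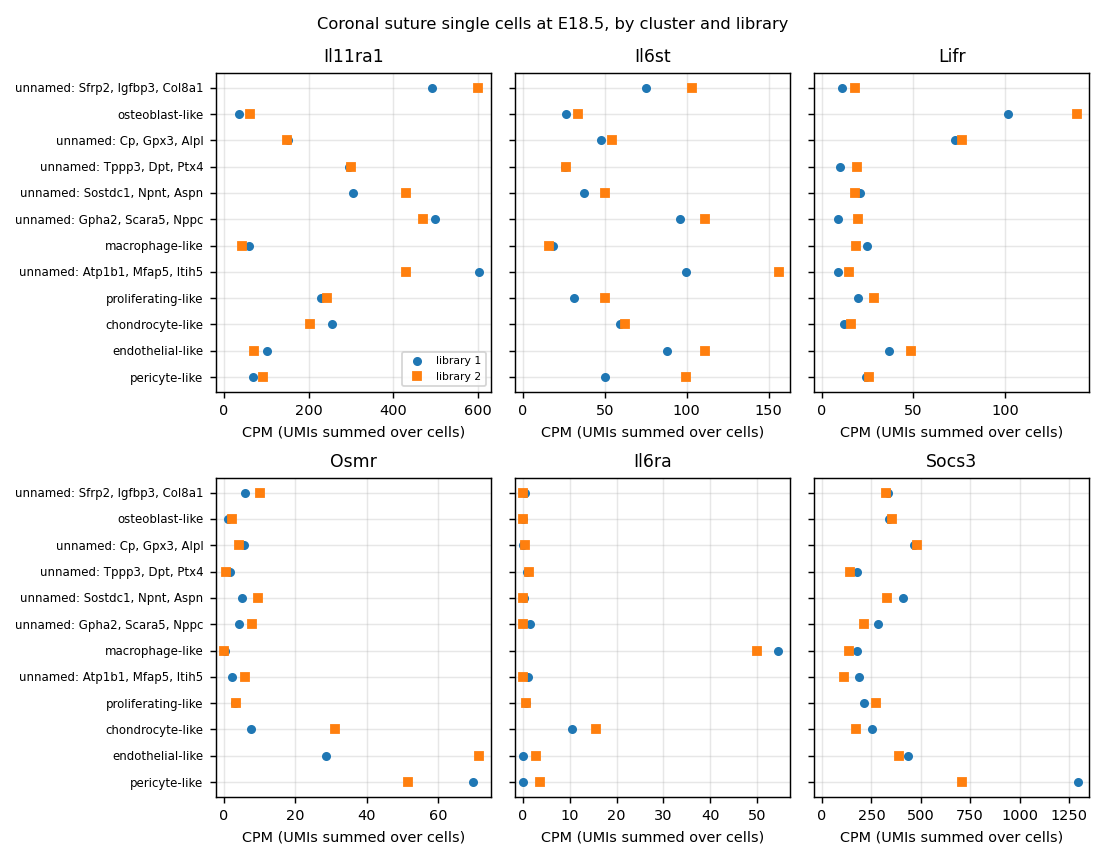
CPM of UMIs summed over cells (horizontal axes) for 6 members in the E18.5 coronal clusters (vertical axis), without the erythroid-like cells, with 1 point per library (legend). Lifr peaks in the osteoblast-like cells, at 102 and 140 CPM, where Il11ra1 is at 36.4 and 61.1 CPM.

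Other genes of the pathway were counted by role in the mean SM minus OF comparison, in which 27.6% of all genes tested were called higher and 27.8% lower in SM. Of 5 further ligand genes that were tested, 3 were called higher in SM: the cardiotrophin genes Ctf1 (1.42, SE 0.21) and Ctf2 (1.21, SE 0.36), and Clcf1 (0.49, SE 0.18). Of 3 further receptors tested, Cntfr, the alpha receptor for ciliary neurotrophic factor, was called higher in SM (1.11, SE 0.14). Among 7 kinases and other effectors, 3 were higher and 2 lower in SM, and Jak2, a kinase bound to these receptors, was the most different (-0.63, SE 0.051), followed by Stat5b (0.41) and Tyk2 (0.30). With 55.4% of all genes called either way, the count of 5 in 7 effectors was near the background. The list medians were 0.58 for the ligands and 0.092 for the kinases and effectors beside 0.036 for all genes.

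Among 7 further inhibitors 2 were higher and 2 lower in SM, with Socs1 at -1.36, Socs2 at 0.56 and the phosphatase gene Ptpn2 at -0.25. Of 8 tested textbook STAT3 targets, 1 was higher and 4 lower in SM, also near the 55.4% of all genes called. Those with the largest differences were Timp1, an inhibitor of matrix metalloproteinases (-1.96, SE 0.093), and the immediate early genes Fos (-1.31, SE 0.26) and Junb (-1.15, SE 0.25), and Cebpb missed the filter. The targets' median was -0.38. With age, the 5 further ligands had 0 calls in SM and 1 in the OFs, and the 8 STAT3 targets 2 lower in SM, and 2 higher and 1 lower in the OFs, beside 5.14% of all genes higher and 5.92% lower in SM and 6.05% and 6.14% in the OFs.

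Genes were ranked by Pearson r with each member in mean log2 CPM over the 20 groups, which share sutures and may share library sets. The genes most like Lifr were Cadm1 (0.957), Rhpn2 (0.948) and 9530036M11Rik (0.947), and those most like Il11ra1 were Zfp444 (0.959), Ephb3 (0.957) and Tceal3 (0.956). For Il6st they were Med12 (0.903), Tns1 (0.898) and Adal (0.885), and for Osmr Fam198a (0.907), Dock9 (0.906) and Gm5751 (0.894). The genes most like Il6ra were Slc24a1 (0.930), Ly86 (0.930) and Unc93b1 (0.920), those most like Socs3 were Synj2 (0.916), Frat2 (0.911) and Ifi27l2a (0.907), those most like Stat3 were Scarna2 (0.891), Sbf1 (0.859) and Map2k7 (0.847) and those most like Lif were Lsmem2 (0.893), Lncppara (0.890) and Gm49016 (0.860). Among the members, the lowest correlation was between Il11ra1 and Lifr, at -0.79.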

How the data were processed

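Per the labels and the study's methods, RNA from laser-captured regions was amplified (Ovation RNA-Seq V2), tagmented (Nextera XT) and sequenced, and the authors deposited raw counts per gene after cutadapt, STAR 2.5.3a and featureCounts 1.6.4 (exons, unstranded, mm10, GENCODE vM22). Single-cell UMI counts were deposited as Cell Ranger matrices. A table of the authors' own log2 fold changes was not used. The members and lists were chosen with earlier results of these data known. Counts of 100 first libraries were fitted together with edgeR 4.0.16 (TMM, 1 mean per group, quasi-likelihood F test, two-sided) after a filter of 1 CPM in over 10% of libraries, and p-values were Benjamini-Hochberg adjusted over 19768 genes within each comparison, with a threshold of 0.05. CPM values use TMM library sizes. SM and OF shared an embryo per the labels, and same-embryo residuals had a median correlation of 0.047 (60 pairs) against -0.011 for other embryos (240 pairs). The fit was tested on simulated data: 96 of 100 genes changed by log2 1 in SM were recovered in the mean comparison and 44 of 100 in a single comparison (frontal E16.5), each among 19768 genes. Apart from these changes, the simulation gave every group the same mean and spread per gene. It therefore did not cover groups of unlike spread, such as the coronal E16.5 libraries. Named were the 9 members, per pathway list the 3 called genes with the largest mean SM minus OF change, and the 3 genes most like each member. Cells with at least 800 detected genes and within 3 median absolute deviations were clustered with scanpy 1.11.5 (2000 variable genes, 13 principal components, resolution 0.8), and no doublet caller was run. Alternatives were DESeq2 1.42.0, limma-voom (limma 3.58.1), other size factors, no filter, the embryo block, single-suture fits, second coronal libraries, omission of each replicate, and for single cells other cell filters and clusterings. p-values measure the spread between embryos. Many embryos of a group share the stem of their embryo code and may be littermates, but they were treated as independent. The ages share no such stem, so a difference between ages cannot be told apart from one between these sets of embryos. A gene of the ligand list is not reported here.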

Additional observations from a re-analysis of the deposited data

Results flagged for a closer look

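The SM minus OF difference in the coronal suture departed from that in the other sutures by -0.97 for Il6st, -0.96 for Osmr and -0.39 for Lifr on the log2 scale (edgeR interaction contrasts), and the difference for Il6st changed between E16.5 and E18.5 by 0.34. A trait of the coronal suture and one of its embryos or libraries cannot be told apart.

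Single libraries stood apart from the other 4 of their group in 23 of the 177 groups and genes examined by Dixon's ratio for 5 samples (critical value 0.71), where chance flags about 1 in 20. For Il11ra1 these were replicate 2 of the coronal E18.5 parietal OF (33.1 CPM) and replicate 3 of the sagittal E18.5 SM (157 CPM). For Il6st they were replicate 3 of the coronal E16.5 frontal OF (512 CPM) and replicate 4 of the coronal E16.5 parietal OF (268 CPM), and for Osmr replicate 2 of the lambdoid E16.5 interparietal OF (10.6 CPM) and replicate 1 of the lambdoid E18.5 parietal OF (22.6 CPM). For Il6ra they were replicate 2 of the coronal E16.5 SM (13.9 CPM) and replicate 4 of the lambdoid E18.5 parietal OF (6.99 CPM). Lif stood apart in replicate 1 of the frontal E16.5 OF (6.63 CPM), replicate 3 of the coronal E16.5 frontal OF (8.49 CPM), replicate 2 of the coronal E16.5 parietal OF (0.818 CPM) and replicate 2 of the coronal E18.5 frontal OF (2.52 CPM).

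Il11 stood apart in replicate 5 of the frontal E16.5 SM (0 CPM), replicate 3 of the frontal E18.5 SM (0.583 CPM), replicate 2 of the coronal E18.5 frontal OF (7.50 CPM), replicate 5 of the coronal E18.5 SM (0.712 CPM), replicate 1 of the lambdoid E18.5 parietal OF (2.16 CPM) and replicate 5 of the sagittal E18.5 parietal OF (0.939 CPM). The high Lif and Il11 values of the coronal E18.5 frontal OF came from the same library. Socs3 stood apart in replicate 2 of the coronal E16.5 frontal OF (2.35 CPM), parietal OF (4.58 CPM) and SM (5.56 CPM), 3 captures of the same embryo, and in replicate 1 of the lambdoid E16.5 SM (7.83 CPM) and replicate 4 of the lambdoid E18.5 interparietal OF (5.33 CPM).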

How the results depend on the processing

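Over all alternatives, the members called in the 12 SM against OF comparisons numbered 37 to 49 (45 as reported) and those in the mean 6 to 7 (7 as reported). With the embryo as a replicate block the 12 comparisons gave 46 calls and the mean 7, and the block changed no call other than the Il6ra and Socs3 ones given above. Leaving out the coronal E16.5 libraries, using the second coronal libraries alone and weighting libraries by quality in voom were chosen after seeing the data. For coronal specificity the second coronal libraries alone gave 1 call in place of 3. For the change of SM minus OF with age, 0 calls in place of 1 were made with total counts, with the second coronal libraries in place of the first or alone, and without the coronal E16.5 libraries, and 0 to 1 when 1 replicate was left out. For age within SM, 1 call in place of 3 was made with total counts and with the second coronal libraries in place of the first, and 1 to 3 without 1 replicate. For age within the OFs, 2 calls in place of 4 were made with DESeq2, limma-voom, median-ratio size factors, total counts, no low-count filter and the second libraries in place of the first, and 1 to 3 without 1 replicate.

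Signs turned for the mean of Stat3 (0.013 with DESeq2 and with median-ratio size factors, 0.049 with total counts), for Lif with age in SM (-0.15 with the second coronal libraries alone), for Lifr with age in the OFs (0.012 without the coronal E16.5 libraries), for Il6st in coronal E16.5 SM against the parietal OF (0.0055 with the second libraries alone) and for Lif against the frontal OF (0.011 with the second libraries in place of the first, 0.27 alone). For Lif in coronal E18.5 SM against the frontal OF, which was not called, 0.26 turned to -3.79, a call, with the second libraries alone, of which those of SM held 0, 0.467 and 0 CPM, so that the size of this fold is not fixed. The causes were not tested. Single-cell means over libraries moved for E16.5 Il11ra1 in osteoblast-like cells (25.6 CPM, 7.38 with 30 principal components or resolution 0.4), E16.5 Il6ra in macrophage-like cells (80.9 CPM, 46.1 with at least 1000 genes, 54.4 at resolution 0.4), E18.5 Il6ra in macrophage-like cells (52.2 CPM, 79.9 at resolution 1.2) and E16.5 Lifr over all cells (35.6 CPM, 32.5 with at least 1000 genes, 39.8 with at least 500). Few counts in most libraries limit Il11, Lif, Il6ra and Socs3, and 5 embryos per group limit single comparisons. The part of sequencing depth in these low counts was not tested.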
